A study of Homo sapiens with 4 samples.

Results

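The 9 genes described here are complement components and regulators: C4BPB, C4BPA, CD46, CD55, CD59, CFB, CFI, C3 and SERPING1. They were taken by name from the 58735 genes of the count table, and 6 of them passed the expression filter. The set was chosen by name with the log2 changes of gomisin G against vehicle already known, above all that of C4BPB, so its own values in that comparison are given as a description and support nothing further. The samples were SW1990 cells, an established human pancreatic cancer line, grown in DMEM. There were 2 libraries of cells given vehicle, whose solvent the labels do not name, and 2 of cells given gomisin G (10 µM), a plant lignan from Schisandra, all for 24 h. The labels do not say that the 2 libraries of a group came from separate cultures, so the spread between them may be technical, and a line in culture has no plasma or immune cells around it.

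Complement is a cascade of blood proteins in which C4 and C3 are split and their fragments C4b and C3b attach to surfaces and build convertases. Host cells hold the cascade back in several ways. C4b-binding protein is a secreted regulator made of alpha chains (gene C4BPA), which carry the C4b-binding sites, and usually a beta chain (gene C4BPB), which binds the anticoagulant protein S. It serves as a cofactor for the protease factor I (gene CFI). CD46 is a membrane cofactor for factor I, CD55 speeds the decay of convertases, and CD59 blocks assembly of the membrane attack complex. CFB encodes the protease subunit of the alternative pathway convertase, C3 the central component and SERPING1 the inhibitor of C1 proteases. The liver is the main source of the soluble members. C4BPB, C4BPA, CD55 and CD46 lie in the cluster of regulators of complement activation on chromosome 1, together with the complement receptor genes CR2 and CR1.

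C4BPB and C4BPA neighbour each other on chromosome 1, C4BPB at 207088842 to 207099993 and C4BPA at 207104262 to 207144972 (GRCh38, both on the plus strand), and had very different levels in these cells. RefSeq promoter windows of both (GRCh38.p14, each 250 bases before to 50 after an annotated start) are shown because the data contrast the 2 genes. Capitals mark every match to the 5 motifs searched on both strands, the C4BPB capitals being the union of 2 overlapping matches.
C4BPB, 1 of 3 windows, chr1:207088989-207089288, plus strand: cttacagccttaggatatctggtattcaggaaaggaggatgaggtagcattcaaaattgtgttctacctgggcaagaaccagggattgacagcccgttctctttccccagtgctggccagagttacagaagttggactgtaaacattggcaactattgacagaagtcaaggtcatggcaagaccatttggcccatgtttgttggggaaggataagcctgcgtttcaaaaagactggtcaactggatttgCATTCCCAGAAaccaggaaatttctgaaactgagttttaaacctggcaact
C4BPA, chr1:207103983-207104282, plus strand: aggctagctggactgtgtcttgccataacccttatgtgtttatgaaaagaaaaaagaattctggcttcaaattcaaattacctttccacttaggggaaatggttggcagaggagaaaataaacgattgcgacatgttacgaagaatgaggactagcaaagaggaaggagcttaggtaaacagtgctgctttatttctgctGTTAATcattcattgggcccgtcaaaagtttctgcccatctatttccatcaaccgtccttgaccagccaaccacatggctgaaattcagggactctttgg
The motifs were GGAATG (TEAD), TGANTCA (AP-1), TTCNNNGAA (STAT), GTTAAT (an HNF1 half-site) and TTGCNNAA (C/EBP). The C4BPB window holds CATTCC, the TEAD letters on the other strand, overlapped by the STAT match TTCCCAGAA. Another window, which overlaps this one, holds the same stretch, and the window at the most upstream start holds no match. The C4BPA window holds 1 match, GTTAAT. TEAD and STAT matches were not particular to C4BPB, since the CFB window also holds both (GGAATG and TTCCGGGAA). The CD59 windows hold AP-1, C/EBP and STAT matches between them, and the CFI window an HNF1 half-site. Those of CD46 and CD55 hold no match. Of all 35116 RefSeq windows of this length, 14% hold the TEAD letters, 7.71% the AP-1, 7.66% the STAT, 6.88% the HNF1 half-site and 10.5% the C/EBP letters. A match is a description of the letters only, and which C4BPB start is used in these cells was not measured. Windows were found for 7 of the 9 genes.

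C4BPB was the complement member with the highest level per exon length in vehicle cells, and it fell with gomisin G. In CPM (counts scaled to library size with TMM factors), it stood at 168 and 131 CPM in the 2 vehicle libraries and at 22.0 and 18.1 CPM in the 2 gomisin G libraries. The groups lay far apart, and the vehicle libraries differed from each other more than the gomisin G ones did. The log2 change, gomisin G minus vehicle, was -2.89 (SE 0.20, edgeR quasi-likelihood test, Benjamini-Hochberg adjusted p = 0.00163 over 15721 tested genes), which is 13.5% of the vehicle level. Among all tested genes C4BPB ranked 6th by p and 14th by size among the decreases. In bulk RNA, fewer cells that make a transcript and less of it per cell cannot be told apart.

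C4BPA had a count of 0 in all 4 libraries. At these depths 3 counts, taken here as the upper limit for a count of 0, equal 0.189 to 0.207 CPM per library. Limits of this kind are approximate and cover counting error only. Against that approximate limit of 3 counts over the group, C4BPB had a level per exon base 1104-fold higher than C4BPA in vehicle. With gomisin G it was 153-fold higher. None of the exon bases of either gene is shared with another GENCODE 29 gene. The beta chain transcript was thus abundant in cells where that of the alpha chain was not detected.

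The 3 membrane regulators changed far less in size. CD46 stood at 267 and 285 CPM in vehicle and at 201 and 216 CPM with gomisin G. Its groups did not overlap, which held for 54.2% of all tested genes. Its log2 change was -0.40 (SE 0.16, adjusted p = 0.200 by edgeR). CD55 stood at 123 and 107 CPM in vehicle and at 92.4 and 87.7 CPM with gomisin G, again without overlap. Its log2 change was -0.35 (SE 0.16, adjusted p = 0.253 by edgeR). CD59 stood at 79.0 and 84.7 CPM in vehicle and at 91.7 and 74.8 CPM with gomisin G. Here the gomisin G libraries lay on either side of the vehicle pair, and the log2 change was 0.03 (SE 0.17, adjusted p = 0.950 by edgeR). None of the 3 passed the threshold of 0.05 over all genes. CD46 and CD55 passed it when either gomisin G library was left out (adjusted p = 0.0183 and 0.0142 without replicate 1, 0.000675 and 0.0343 without replicate 2, by edgeR). In those fits the spread comes from the vehicle pair, which over all genes agreed more closely than the gomisin G pair, though not for CD55 itself.

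The fluid-phase components were near or below detection. CFB had 14 and 16 counts in vehicle and 8 and 14 with gomisin G. The gomisin G to vehicle ratio of its summed, scaled counts was 0.710 (95% exact counting interval 0.390 to 1.27). C3 had 10 and 10 counts in vehicle and 11 and 15 with gomisin G, a ratio of 1.26 (95% exact counting interval 0.676 to 2.38). Both intervals hold a ratio of 1, so a change in either gene was not detectable at this depth. CFI and SERPING1 had a count of 0 in all 4 libraries, as C4BPA had. For CFB and CFI, 45% and 32% of exon bases are shared on the same strand with AL645922.1 and AC126283.2, gene models listed at 0 in every library. The sources used here do not say whether reads in shared bases were counted, so these levels may be too low.

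Per kilobase of exon, the order of the members in vehicle was C4BPB at 46.3 ± 8.13, CD46 at 31.7 ± 1.45, CD55 at 19.5 ± 1.87 and CD59 at 7.90 ± 0.387 CPM per kb (mean ± SD, n = 2 libraries). CFB at 0.204 ± 0.0157 and C3 at 0.0818 ± 0.00143 CPM per kb came far below. The libraries of no neighbouring pair in this order overlapped. With gomisin G the order was CD46 at 23.9 ± 1.19, CD55 at 15.2 ± 0.568, CD59 at 8.04 ± 1.16 and C4BPB at 6.24 ± 0.861 CPM per kb. Per kb, C4BPB thus had the highest level of the 9 in vehicle and the lowest of these 4 with gomisin G. Its 2 gomisin G libraries (6.85 and 5.63 CPM per kb) lay below both of CD59 (8.86 and 7.22). Without division by length CD46 was higher in vehicle (mean of 276 CPM, against 149 CPM for C4BPB). The length takes in all annotated exons of a gene (8708 bases for CD46, 3219 for C4BPB), so this order depends on the annotation. Among all 15721 tested genes the level of C4BPB per kb ranked 877th in vehicle and 6599th with gomisin G, while CD59 ranked 5750th and 5586th. These ranks depend on the annotated lengths too.

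**Figure D1:**
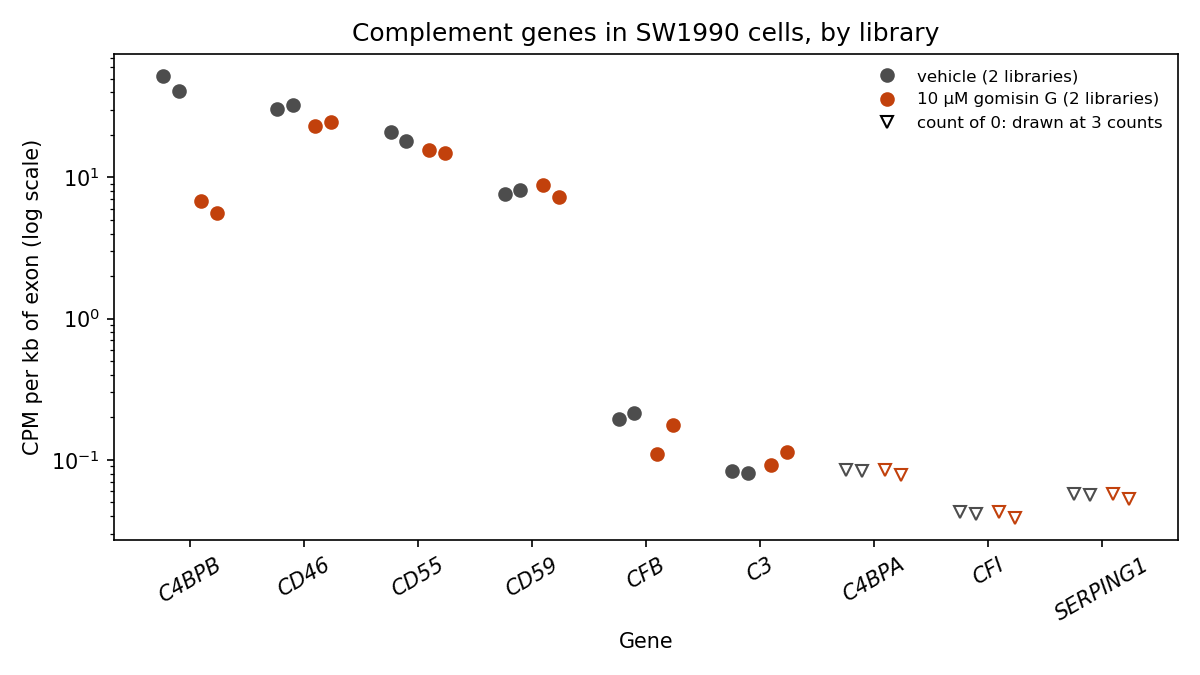
Level of each of the 9 genes in CPM per kb of exon (log axis) in the 2 vehicle (grey) and 2 gomisin G (orange) libraries, with open triangles at 3 counts where the count was 0. The C4BPB points drop from 52.0 and 40.6 to 6.85 and 5.63, while those of CD59 overlap between the groups.

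Of the 9 members, 1 was called (C4BPB, lower with gomisin G). Of all tested genes 1.83% were called, and 0.903% were called as lower. The groups did not overlap for 5 of the 6 tested members, against 54.2% of all tested genes. The median log2 change of the 6 was -0.38, against 0.01 over all tested genes. Since the set was chosen with these values known, nothing is read from those counts.

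Other complement genes, from a list of 54 textbook components, regulators and receptors outside the set, ranged from a count of 0 to a mean of 438 CPM in vehicle (C1QBP). Of the 54, 23 had a count of 0 in all libraries, among them C1QA, C1QB and C1QC, and the terminal genes C6, C7, C8A, C8B and C9. A further 15 had counts but did not pass the filter. Of the 16 tested, 9 lay below 0 and 7 above it in log2 change (median -0.18), where 49.3% of all tested genes lay below 0. Of these edgeR called 1, the complement receptor gene CR2, which fell. Over all tested genes 1.83% were called and 0.903% were called as lower. By edgeR 4 of the 16 had an unadjusted p below 0.05, against 20.6% of all tested genes.

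CR2, which encodes the receptor for C3d and is best known on B cells, stood at 62.4 and 60.1 CPM in vehicle and at 28.2 and 30.9 CPM with gomisin G. Both libraries of each group were close, and the groups did not overlap, as for 54.2% of all tested genes. The log2 change was -1.05 (SE 0.16, adjusted p = 0.0273 by edgeR). Without vehicle replicate 1 or 2 the size was similar, at -1.03 and -1.08, but the adjusted p was 0.136 and 0.106. Those fits take their spread from the gomisin G pair.

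Among the recognition and protease genes, C1RL, a C1r-like protease gene, had the highest level (means of 18.3 CPM in vehicle and 26.6 in treated cells, log2 change 0.54, SE 0.21, adjusted p = 0.203 by edgeR). MASP2, a protease gene of the lectin pathway, had a log2 change of -0.43. In the group from C2 to C5 and the alternative pathway, CFD, the factor D gene, had a log2 change of 0.30. Its gomisin G libraries differed, at 22.9 and 16.4 CPM, against 15.7 and 16.1 CPM in vehicle. C5 showed a log2 change of -0.70 (SE 0.21, adjusted p = 0.125 by edgeR). C4A and C4B are near-identical copies, so their counts are uncertain. C4A had 20 and 21 counts in vehicle and 2 and 14 with gomisin G, a ratio of 0.378 (95% exact counting interval 0.198 to 0.688). That interval covers counting error only, not the wide gap between the gomisin G libraries. By edgeR, which takes in that spread, the adjusted p was 0.273 (log2 change -1.40, SE 0.65). C4B had 16 and 17 counts in vehicle and 13 and 16 with gomisin G. Its log2 change was -0.23 (SE 0.45, adjusted p = 0.803 by edgeR). Among the other regulators the chaperone-like clusterin gene CLU had means of 314 and 392 CPM in vehicle and gomisin G libraries (log2 change 0.32, adjusted p = 0.368 by edgeR). Its gomisin G libraries differed, at 449 and 335 CPM, against 315 and 313 CPM in vehicle. C1QBP, a mitochondrial protein gene named for binding C1q, averaged 438 and 403 CPM (log2 change -0.12), with its gomisin G libraries at 467 and 340 CPM. The terminal component gene C8G (0.09) and the anaphylatoxin receptor gene C5AR1 (0.76) were the only tested genes of their groups. Neither passed the test, and the gomisin G libraries of each differed widely, at 20 and 4 counts for C8G and 96 and 44 for C5AR1.

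**Figure D2:**
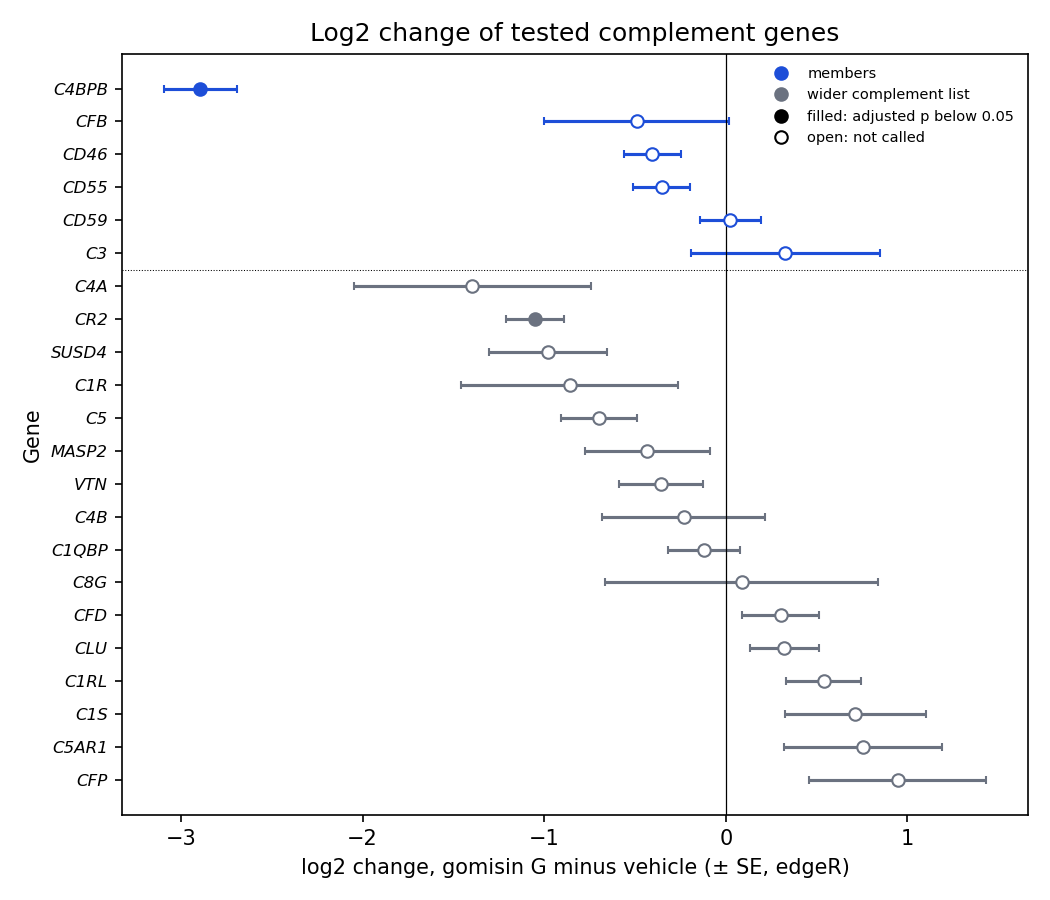
Log2 change (gomisin G minus vehicle, ± SE, edgeR) of the 6 tested members (blue) and of the 16 tested genes of the wider complement list (grey), with filled points for an adjusted p below 0.05. Only C4BPB (-2.89) and CR2 (-1.05) are filled, and the other points lie between -1.40 (C4A) and 0.95 (CFP).

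C4BPB, CD55, CR2 and CD46 share a neighbourhood, which the choice of the set did not use. From 1 Mb before C4BPB to 1 Mb after CD46 (chromosome 1, 206088842 to 208795513) the table lists 65 genes, of which 32 had a count of 0 and 17 were tested. Of the 17, 13 lay below 0 in log2 change (median -0.34), a count that takes in C4BPB, CD55 and CD46, chosen with their changes known. Without these members, 10 of 14 lay below 0 (median -0.32), where 49.3% of all tested genes did. No test was made of the stretch as a unit.

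Besides C4BPB, 2 of the 14 tested genes of this stretch outside the set were called, CR2 and PFKFB2, and both fell, where 1.83% of all tested genes were called and 0.903% were called as lower. PFKFB2, a gene for an enzyme that sets fructose 2,6-bisphosphate levels, starts at -54.5 kb from the C4BPB start. It stood at 37.8 and 40.8 CPM in vehicle and at 16.1 and 19.9 CPM with gomisin G, a log2 change of -1.12 (SE 0.18, adjusted p = 0.0315 by edgeR). Without vehicle replicate 1 or 2 its adjusted p was 0.0534 and 0.119, at log2 changes of -1.18 and -1.07. YOD1, a deubiquitinase gene and the nearest tested neighbour upstream by distance between starts, did not pass the test, with a log2 change of -0.54 (SE 0.17, adjusted p = 0.135 by edgeR). YOD1 lies inside PFKFB2 on the other strand and shares 315 exon bases with it, whose reads cannot be told apart while the strand setting is unknown. On the other side the nearest tested gene was CD55, since C4BPA and the genes between them had no counts. The receptor gene CR1 had 1 count in all.

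**Figure D3:**
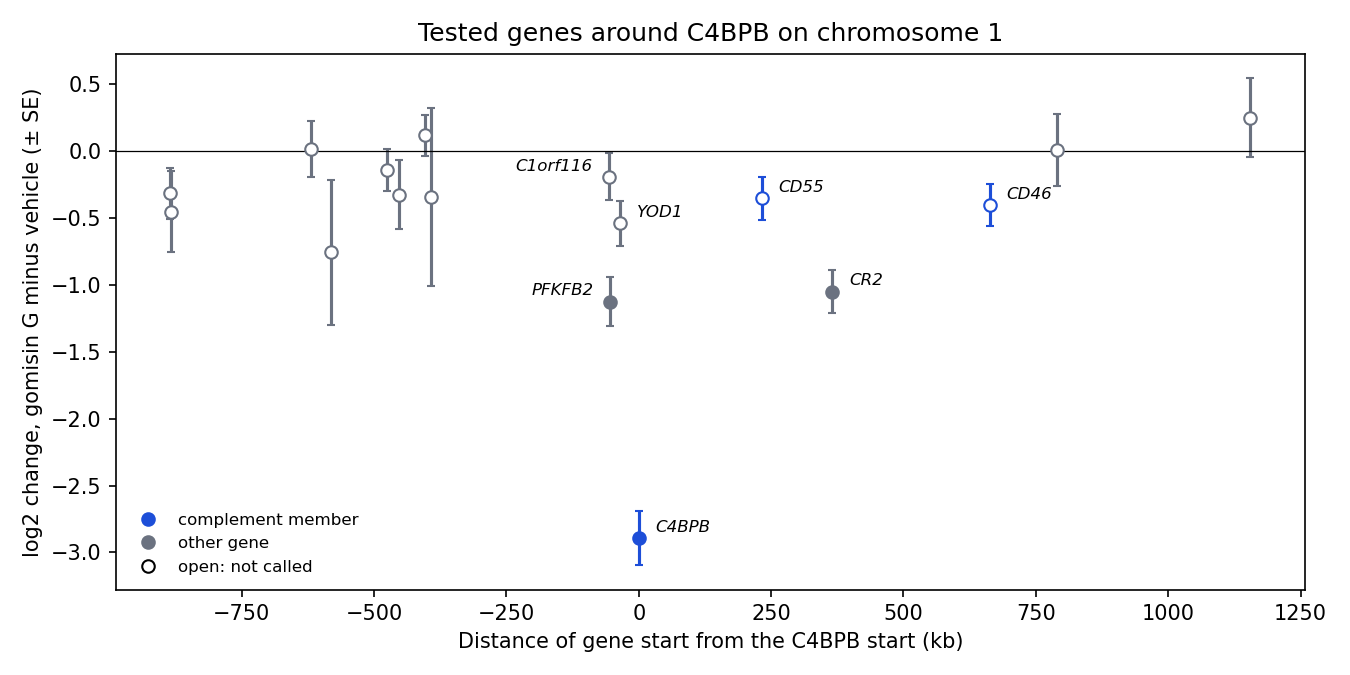
Log2 change (gomisin G minus vehicle, ± SE) of the 17 tested genes by distance of their start from that of C4BPB in kb, with complement members in blue and filled points for an adjusted p below 0.05. C4BPB lies at -2.89, PFKFB2 and CR2 at -1.12 and -1.05, and the other genes lie between -0.76 and 0.25.

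Protein S, which the beta chain of C4b-binding protein binds, is encoded by PROS1. PROS1 stood at 25.9 and 23.8 CPM in vehicle and at 30.7 and 36.4 CPM with gomisin G, a log2 change of 0.43 (SE 0.18, adjusted p = 0.219 by edgeR), opposite in sign to that of C4BPB and not past the threshold. Of 7 genes of protein S, its relative GAS6 (log2 change 0.13), protein C and their receptors, edgeR called 0, as did DESeq2 and limma voom. By edgeR 4 of the 7 had an unadjusted p below 0.05, against 20.6% of all tested genes. The protein C gene PROC had the log2 change of largest size among them, 2.05 (SE 0.51, adjusted p = 0.0843 by edgeR), at 9 and 8 counts in vehicle and 24 and 50 with gomisin G. CD55 and CD59 are held in the membrane by glycosylphosphatidylinositol (GPI) anchors. Of 27 tested genes of GPI anchor synthesis and attachment, 12 lay below 0 and 15 above it in log2 change (median 0.03). Of these edgeR called 0 (3 at an unadjusted p below 0.05, against 20.6% of all tested genes, and 0 called by DESeq2 or limma voom). The 2 most abundant, the transamidase subunit genes PIGT and GPAA1, had log2 changes of 0.21 and 0.07.

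The transcription factors and cytokine receptors that act on complement and acute-phase genes were nearly all expressed. Of 24 listed genes 22 were tested, 7 below 0 and 15 above it in log2 change (median 0.11). Of these edgeR called 0 (5 at an unadjusted p below 0.05, near the 20.6% of all tested genes, 3 called by DESeq2 and 0 by limma voom). STAT3, among the most abundant, had a log2 change of -0.12 (adjusted p = 0.708 by edgeR). The log2 changes of the 22 ran from -0.52 (IL6ST) to 0.99 (IL6R, adjusted p = 0.0791 by edgeR). CEBPB and CEBPD, genes of C/EBP factors, had log2 changes of 0.89 and 0.94 (adjusted p = 0.0689 and 0.0847 by edgeR). Acute-phase genes, a liver program that includes many complement genes, were scarce, with 3 of 19 tested and 7 at a count of 0. Of the 3 edgeR called 0 (1 at an unadjusted p below 0.05, against 20.6% of all tested genes, 1 called by DESeq2 and 0 by limma voom). That 1 was SERPINA1, the alpha-1-antitrypsin gene, with means of 5.18 and 12.1 CPM in vehicle and gomisin G libraries (log2 change 1.22, SE 0.25, adjusted p = 0.0567 by edgeR). LCN2, the lipocalin gene, was the most abundant of them, with a log2 change of 0.13.

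By the shape of its 4 log2 CPM values around their mean, C4BPB lay closest to HRNR, CCN1 (CYR61 in the files), NDP, FLG and AMOTL2. Their Euclidean distances over the 4 libraries were 0.183, 0.297, 0.356, 0.399 and 0.502, among genes whose mean log2 CPM reached 1. All 5 were called, against 1.83% of all tested genes, with log2 changes from -2.81 to -3.10. These calls and changes follow from the choice by likeness to C4BPB. By this measure genes with treatment differences of similar size lie close to each other, and nothing is said of shared control.

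The cells were epithelial by their markers. All 8 epithelial and pancreatic duct markers were tested, with summed levels of 10141 to 11925 CPM in vehicle and 7820 to 9969 CPM with gomisin G, and edgeR called 0 of them (2 at an unadjusted p below 0.05, against 20.6% of all tested genes, 1 called by DESeq2 and 0 by limma voom). KRT8 (log2 change -0.49) and KRT18 (-0.45) made up most of that sum, while 5 of the 8 had a log2 change above 0, among them KRT19 (0.68) and MUC1 (0.83). KRT7, a duct keratin gene, had 13 to 30 counts. Of 6 hepatocyte markers 0 were tested and 3 had a count of 0 in all libraries. Their summed level was 0 to 0.0673 CPM in vehicle and 0.622 to 0.631 CPM with gomisin G, with albumin at 0 and 1 counts against 7 and 10. The 6 macrophage and leukocyte markers summed to 4.92 to 6.66 CPM, nearly all CD14, with PTPRC and CD163 at a count of 0. The 4 endothelial markers summed to 0.207 to 0.966 CPM, with KDR at a count of 0. The 6 fibroblast markers summed to 4.62 to 4.91 CPM in vehicle and 8.57 to 12.0 CPM with gomisin G, with COL1A2 and LUM at a count of 0. The 2 that were tested had log2 changes of 0.83 and 1.57, and edgeR called 0 (lowest adjusted p = 0.0548). Both had an unadjusted p below 0.05 by edgeR, against 20.6% of all tested genes, with 1 called by DESeq2 and 0 by limma voom. The part of these differences in the complement results was not tested.

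Total counts ranged from 14580848 to 15245770 per library. The 2 gomisin G libraries differed more (chi-square of 37.2 per gene) than the vehicle pair (6.98 per gene). Over all 15721 tested genes edgeR called 287, of which 142 were lower with gomisin G.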

How the data were processed

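RNA-seq gene counts were used as deposited: the authors' values are raw counts per gene without normalization. Trimming, alignment and counting tools are fastp, HISAT2 and featureCounts, with build hg38, per the submitters' processing notes, which give no versions. Strand, multi-mapping and overlap settings are not given in the sources used here. Gene lengths and coordinates of the 9 members equal GENCODE 29. The whole table and the 4 sample tables differed in 0 values. The comparison used edgeR 4.0.16 (R 4.3.3; filterByExpr, TMM, robust quasi-likelihood F test, treatment alone in the design, Benjamini-Hochberg over 15721 genes, threshold 0.05), tested on simulated data. SE is the absolute log2 change divided by the square root of F. CPM per kb uses the exon length in the files. Alternatives used limma 3.58.1, DESeq2 1.42.0, other factors, filters and single libraries left out. The removal of the length trend was chosen after seeing the data. Members and lists were chosen with earlier results of these data known. Named were all members, PROS1, called genes of each list (up to 4, or 6 in the chromosome 1 stretch), the 2 most abundant tested genes of each list, the tested neighbours of C4BPB and the 5 genes most like it. Genes named beyond that rule, such as CFP, C4A, C4B, CR1, PROC, CEBPB, CEBPD, IL6R, IL6ST, the keratins and the silent components and markers, were chosen after their values were seen. Values of 2 listed genes are not reported here.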

Additional observations from a re-analysis of the deposited data

How the results depend on the processing

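C4BPB was called under all 13 alternatives, with log2 changes from -3.06 to -2.71. The number of members called was 1 to 3 when a library was left out, the 2 others being CD46 and CD55. For the wider complement list it was 0 to 7, and for the chromosome 1 stretch 1 to 7. Over all genes it was 135 to 6322, and 890 with DESeq2 and 900 with the length trend removed. With the replicate number as a block edgeR called 2886 genes over all and 4 of the wider list. Deviations of the 2 libraries numbered 1 correlated at 0.21 over genes, and with 2 pairs the numbers are not shown to pair the samples. Among the members and other named genes that were recomputed, those whose sign reversed were not called by the main settings, though C1QBP, GPAA1 and LCN2 were called without 1 of the gomisin G libraries (adjusted p = 0.0122, 0.0472 and 0.00883 by edgeR). With the length trend removed these were C8G (-0.15), GPAA1 (-0.041), LCN2 (-0.12) and STAT3 (0.028), and with limma voom C8G (-0.32). When a library was left out, the log2 change ran from -0.13 to 0.17 for CD59, from -1.54 to 0.88 for C8G, from -0.37 to 0.091 for C1QBP, from -0.20 to 0.29 for GPAA1 and from -0.17 to 0.38 for LCN2. The cause was not tested.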
